A study of Arabidopsis thaliana with 6 samples.

Results

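The auxin response genes described here are 49 Arabidopsis loci of 3 families: 29 Aux/IAA repressor genes, 15 AUXIN RESPONSE FACTOR (ARF) genes, namely ARF1 to ARF11 and ARF16 to ARF19, and the 5 receptor genes TIR1, AFB1, AFB2, AFB3 and AFB5. They were chosen by locus and family, by a rule that uses no measured value, although earlier results of these data were known, and all 49 were found among the 33560 genes of the expression table. RNA came from the last 2 mm or so of the root of seedlings aged 5 days, grown under 16 h of light and 8 h of dark. The 2 genotypes were bron-2, in which a T-DNA interrupts the transcription factor gene BRON (BRONTOSAURUS, AT1G75710), and the Columbia-0 wild type, with 3 biological replicates of each. One bron allele was sequenced, so effects of the gene and of this particular line cannot be told apart.

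Auxin acts as a glue between an F-box receptor of the TIR1/AFB family and the degron of an Aux/IAA protein. The receptor is part of an SCF ubiquitin ligase, which marks the bound Aux/IAA protein for degradation. Aux/IAA proteins otherwise bind ARF transcription factors and bring in TOPLESS co-repressors at auxin-responsive genes, many of which encode Aux/IAA proteins themselves. In the root tip this pathway is known for its part in setting the stem cell niche, the size of the meristem, gravitropic bending and lateral root formation.

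The Aux/IAA genes are grouped below by whether they carry the degron core. Its coding sequence is shown for the called genes that carry it and for the 3 most abundant members. The core was searched in frame as the codon GGN followed by TGG, CCN and CCN in the RefSeq coding sequences of the TAIR10.1 assembly, on the coding strand. It was found in 23 of the 29 Aux/IAA genes and in 34 of all 27444 coding genes. The 6 Aux/IAA genes without it were IAA20, IAA30, IAA31, IAA32, IAA33 and IAA34, called noncanonical here. Each line gives 30 coding bases, with the core in capitals.
IAA1: caaatcgttGGATGGCCTCCAgtgagatct
IAA4: cagattgttGGATGGCCACCAgttagatct
IAA9: caaattgtcGGTTGGCCTCCAgtgagatcc
IAA16: caagttgtgGGATGGCCACCGgtacgatct
IAA17: caagttgtgGGATGGCCACCGgtgagatca
These stretches start the core at codon 58 of IAA1 on chromosome 4, codon 65 of IAA4 and codon 186 of IAA9 on chromosome 5, codon 73 of IAA16 on chromosome 3 and codon 85 of IAA17 on chromosome 1.

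Several ARF and receptor genes are known targets of microRNAs, which pair with a site in the transcript and lead to its cleavage. The mature sequences of the 3 microRNAs are shown first, from the RefSeq annotation, with the seed (bases 2 to 8) in capitals and in DNA letters.
miR160a: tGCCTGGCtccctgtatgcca
miR167a: tGAAGCTGccagcatgatcta
miR393a: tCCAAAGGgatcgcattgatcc
A site with up to 4 mismatches was found in 9 members, in each case in coding exon sequence. Capitals in the sites mark bases that differ from the perfect complement of the microRNA.
ARF10, miR160a: AggAatacagggagccaggca
ARF16, miR160a: GggTTtacagggagccaggca
ARF17, miR160a: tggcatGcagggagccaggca
ARF6, miR167a: GagatcaGgctggcagcttGT
ARF8, miR167a: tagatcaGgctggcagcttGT
TIR1, miR393a: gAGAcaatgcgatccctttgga
AFB1, miR393a: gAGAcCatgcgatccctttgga
AFB2, miR393a: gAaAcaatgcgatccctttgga
The AFB3 site had the same sequence as that of AFB2. The site lies at chr3:23273727-23273748 on the minus strand for TIR1, at chr4:1405341-1405362 on the minus strand for AFB1, and at chr3:9870237-9870258 on the plus strand for AFB2. AFB1 and ARF6 had 4 mismatches, the most among the 9, and ARF17 had 1, the fewest.

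The deposited values are FPKM, in which fragments are scaled by transcript length and library size, so levels can be compared between genes. Their sums were 791546 to 812383 in bron-2 libraries and 793710 to 810099 in wild type libraries. Read numbers are not known from FPKM, but the spacing of the lowest values placed the bron-2 libraries at 1.19 to 1.26 times the depth of wild type replicate 1, against 0.992 to 1.099 for wild type libraries. BRON itself was at 1.25, 0.925 and 1.097 FPKM in the bron-2 libraries, against 17.9, 16.1 and 17.3 FPKM in the wild type libraries. The bron-2 mean was 6.38% of the wild type mean, with a log2 fold change of -3.12 (SE 0.11) and a limma adjusted p of 7.91e-05, so every library matched its genotype label. Here and below, values stand in the order of replicates 1, 2 and 3. Of the root tip markers, SCR was at 24.6 to 27.7 FPKM in bron-2 and 23.0 to 27.8 FPKM in wild type, whereas the 5 leaf markers summed to 3.53 to 4.46 FPKM in bron-2 and 5.98 to 8.22 FPKM in wild type. The summed leaf marker level was thus low throughout and lower in every bron-2 library, although the groups overlapped for each of the 5 markers alone. The part of leaf markers in the results below was not tested.

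Most auxin response genes differed little between bron-2 and wild type, and the clearest exception was the noncanonical repressor gene IAA33. Of the 49 members, 38 averaged 1 FPKM or more across the 6 libraries and entered the limma comparison. IAA33 was among them through its wild type values, as all its bron-2 values were under 1 FPKM. At the unadjusted p-value threshold of 0.05, which is also the threshold the study used, 3 of the 38 were called: IAA33, IAA4 and IAA1, all Aux/IAA genes and all lower in bron-2. Among all 17107 genes tested, 9.79% were called at this threshold, 5.76% as lower and 4.03% as higher in bron-2. This share is the background for every count of called genes below, where small sets hold few calls or 0. With 3 of 38 members called, the number of calls was therefore no larger than the background. After Benjamini-Hochberg adjustment across the whole table, 0 members passed, where 0.0818% of all genes did, and the smallest adjusted p among members was 0.186, for IAA33. The median log2 fold change was -0.008 over the members and -0.001 over all tested genes, and the median size of the change was 0.106 and 0.113. Below 0 were 20 of the 38 members, or 52.6%, against 50.3% of all tested genes.

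**Figure D1:**
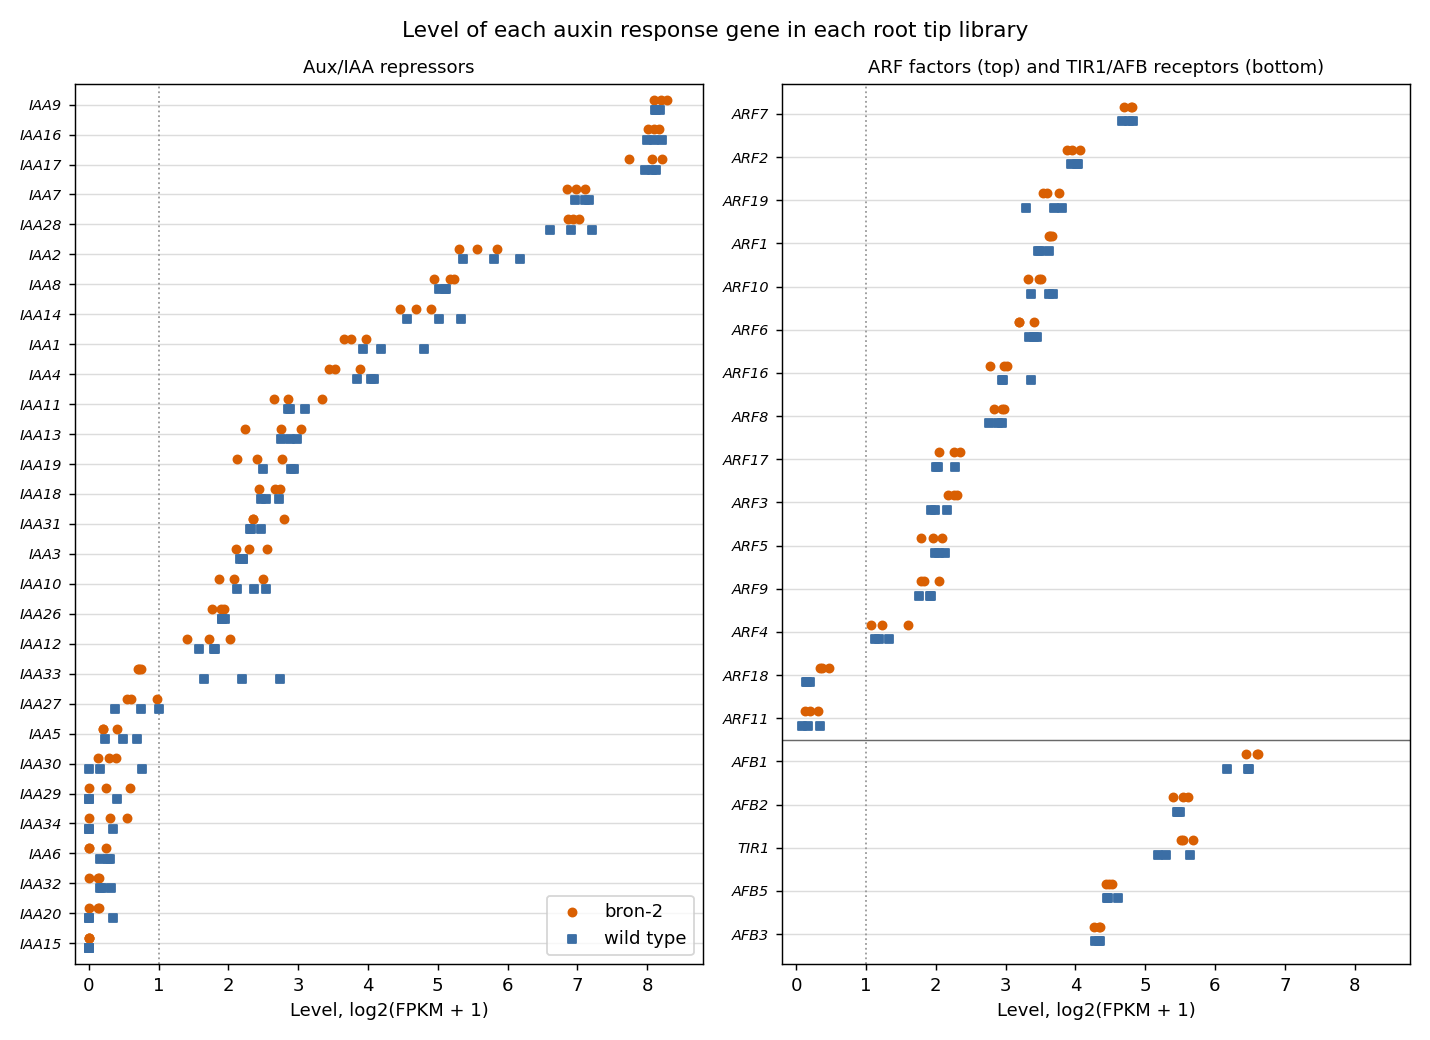
Level of each of the 49 genes in each library, as log2(FPKM + 1) on the horizontal axis, with Aux/IAA genes on the left and ARF and receptor genes on the right. Orange circles above are the 3 bron-2 libraries, blue squares below the 3 wild type libraries, and the dotted line marks 1 FPKM. For most genes the circles and squares share one range, whereas for IAA33 the circles lie at 0.634 to 0.673 FPKM, all to the left of the squares at 2.14 to 5.65 FPKM.

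The 5 receptor genes all passed the filter, and 0 of 5 were called. AFB1, an auxin receptor known for its part in the fast, non-transcriptional auxin response of roots, was the most abundant. It was at 86.4, 96.5 and 97.1 FPKM in bron-2, against 88.2, 70.9 and 88.4 FPKM in wild type. The groups overlapped, with wild type replicate 2 as the lowest of the 6 values. The log2 fold change was 0.18 (95% interval -0.07 to 0.43, limma adjusted p = 0.623). AFB1 alone made up 39.2% to 42.5% of the summed receptor level in bron-2 and 36.9% to 42.1% in wild type.

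TIR1, the founding auxin receptor, was at 44.9, 45.7 and 50.4 FPKM in bron-2, against 35.5, 38.3 and 48.9 FPKM in wild type. Wild type replicate 3 lay among the bron-2 values, while the other 2 wild type libraries lay below all of them. The log2 fold change was 0.21 (95% interval -0.08 to 0.50, limma adjusted p = 0.631). Without wild type replicate 3 it was 0.34 and TIR1 was called (limma adjusted p = 0.224), whereas the other 5 fits that left out a library gave 0.12 to 0.24 and no call. AFB2, a close relative of AFB3, was at 48.1, 45.4 and 41.3 FPKM in bron-2 and at 43.3, 44.0 and 42.8 FPKM in wild type, with a log2 fold change of 0.05 (95% interval -0.14 to 0.24). The bron-2 values spanned the whole range of the wild type values.

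AFB3 and AFB5 were the lowest of the family, at 18.3 to 22.1 FPKM in bron-2 and 18.4 to 23.3 FPKM in wild type. Their log2 fold changes had 95% intervals of -0.19 to 0.18 for AFB3 and -0.22 to 0.17 for AFB5. The sum over the 5 receptors was 220.7, 227.7 and 228.5 FPKM in bron-2, against 209.6, 192.4 and 220.6 FPKM in wild type. All 3 bron-2 sums lay above the wild type sums, the nearest by less than 1 FPKM. No test was run on the sum.

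The Aux/IAA family spanned the whole scale, with members from 0 FPKM up to a mean of 286 FPKM. IAA9, IAA16, IAA17, IAA7 and IAA28 together made up 86.1% to 86.3% of the summed Aux/IAA level in bron-2 and 83.0% to 85.4% in wild type. IAA9, a canonical repressor closely related to IAA8, was at 291, 309 and 273 FPKM in bron-2, against 275, 291 and 278 FPKM in wild type. Its log2 fold change was 0.05 (95% interval -0.12 to 0.22), and the groups overlapped.

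IAA16, whose stabilised forms reduce auxin response in roots, was at 286, 272 and 257 FPKM in bron-2 and at 295, 273 and 255 FPKM in wild type. The bron-2 values lay within the range of the wild type values, and the log2 fold change was -0.01 (95% interval -0.21 to 0.18). IAA17 (AXR3), a regulator of root growth and gravitropism, was at 294, 267 and 212 FPKM in bron-2, against 277, 266 and 249 FPKM in wild type. Here the wild type values lay within the range of the bron-2 values, and the log2 fold change was -0.05 (95% interval -0.33 to 0.24). Over these 3 most abundant repressors the widest interval was that of IAA17.

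IAA33 (AT5G57420, chr5:23269914-23271092 on the plus strand in TAIR10.1, with 2 exons and a transcript of 759 bases) was the member with the largest difference. It encodes a noncanonical Aux/IAA protein without the degron core, known in Arabidopsis to act with ARF10 and ARF16 in the distal root tip. Its level was 0.634, 0.654 and 0.673 FPKM in bron-2, against 5.65, 3.59 and 2.14 FPKM in wild type. The bron-2 libraries lay close together and all below the wild type libraries, which differed from one another by more than any bron-2 library did. The means were 0.654 ± 0.0198 FPKM in bron-2 and 3.79 ± 1.77 FPKM in wild type (SD, n = 3 each), so that bron-2 was at 17.2% of the wild type level. The log2 fold change on the log2(FPKM + 1) scale was -1.47 (SE 0.26, 95% interval -2.06 to -0.88), with a limma p = 0.000495, a limma adjusted p = 0.186 and an exact two-sided permutation p = 0.1, the smallest that 3 against 3 libraries allow. The scale understates the change of so low a gene: with a pseudocount of 0.1 the value was -2.26. The mean over the 6 libraries was 2.22 FPKM, and IAA33 passed the filter of 1 FPKM through its wild type values. In the fit without the filter the limma p was 0.000922 and the limma adjusted p was 0.309. IAA33 kept an unadjusted p under 0.05 in all 12 alternatives that tested it, and the log2 fold change was between -1.74 and -1.20 when any one library was left out. Its adjusted p was 0.0369 without wild type replicate 3 and 0.666 without wild type replicate 2, so whether it passes the adjusted threshold depended on single libraries. In bulk root tips, fewer cells that express a gene and less RNA per cell cannot be told apart.

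The root tip markers did not share one direction between the genotypes. Of the 5 root tip markers, PLT2, a stem cell regulator, was at 0.807, 0.706 and 0.672 FPKM in bron-2, against 1.63, 1.203 and 1.04 FPKM in wild type (called, limma adjusted p = 0.465). Its mean over the 6 libraries was 1.01 FPKM, at the edge of the filter of 1 FPKM, which it passed through its wild type values. PLT1 was lower in every bron-2 library as well, at 0.506 to 0.766 FPKM against 0.780 to 0.930 FPKM in wild type, and WOX5, the marker of the quiescent centre, was at 0 to 0.367 FPKM in bron-2 and 0.300 to 0.522 FPKM in wild type, with bron-2 replicate 1 listed at 0. PLT1 and WOX5 were under the filter. In the fit without it, WOX5 was called (log2 fold change -0.31, limma adjusted p = 0.572) and PLT1 was not. SCR and SHR, the other root tip markers, were not called, with log2 fold changes of 0.06 and 0.09. The list as a whole summed to 34.6 to 39.0 FPKM in bron-2 and 33.7 to 37.7 FPKM in wild type, and most of the sum was SCR. The 4 root cap markers SMB, BRN1, BRN2 and FEZ summed to 71.7 to 83.8 FPKM in bron-2 and 80.6 to 95.8 FPKM in wild type. Of the 3 that were tested, 0 were called, and all 3 had a log2 fold change below 0. BRN2 was lower in every bron-2 library, at 28.9 to 34.5 FPKM against 35.9 to 39.1 FPKM in wild type (limma adjusted p = 0.528). In the fit without the filter BRN2 was called (limma adjusted p = 0.572). For SMB, BRN1 and FEZ the groups overlapped. The part of these markers in the IAA33 difference was not tested.

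The genes on either side of IAA33 did not share its direction as a block. AT5G57410, upstream on the other strand, was at 6.19, 6.49 and 6.30 FPKM in bron-2, against 4.59, 4.63 and 5.66 FPKM in wild type (log2 fold change 0.30, called, limma adjusted p = 0.444). AT5G57440, which lies downstream and runs towards IAA33, was at 26.2 to 33.1 FPKM in bron-2 and 28.5 to 29.7 FPKM in wild type (limma adjusted p = 0.999). Farther upstream, AT5G57390 was at 0.243, 0.0840 and 0.259 FPKM in bron-2, against 0.587, 0.604 and 0.555 FPKM in wild type, under the filter and so not tested in the main fit. In the fit without the filter its log2 fold change was -0.41 and it was called (limma adjusted p = 0.317). Of the 8 nearest genes, 4 on each side, AT5G57390 was the one that was lower in every bron-2 library, and AT5G57400 and AT5G57410 were higher in every one. No annotated gene overlaps IAA33.

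IAA4 (AT5G43700, chr5:17550179-17551715, plus strand), a canonical repressor that auxin induces, was at 13.8, 9.81 and 10.5 FPKM in bron-2, against 15.5, 15.9 and 13.3 FPKM in wild type. Replicates 2 and 3 of bron-2 lay below all wild type libraries, and bron-2 replicate 1 lay between wild type replicates 3 and 1. The means were 11.4 ± 2.12 FPKM in bron-2 and 14.9 ± 1.40 FPKM in wild type (SD, n = 3 each). The log2 fold change was -0.37 (SE 0.14, limma p = 0.0292, adjusted p = 0.453, exact permutation p = 0.2). The call was lost without wild type replicate 1 or 2 and without bron-2 replicate 2 or 3, with log2 fold changes of -0.51 to -0.28 over the 6 fits that left out a library.

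IAA1 (AT4G14560, chr4:8360996-8362033, plus strand), an early auxin-induced repressor gene, was at 11.6, 12.6 and 14.7 FPKM in bron-2, against 26.9, 14.2 and 17.2 FPKM in wild type. The highest bron-2 library lay above the lowest wild type library, and wild type replicate 1 stood well above the other 5 libraries. The means were 12.9 ± 1.55 FPKM in bron-2 and 19.4 ± 6.65 FPKM in wild type (SD, n = 3 each). The log2 fold change was -0.51 (SE 0.21, limma p = 0.0455, adjusted p = 0.498, exact permutation p = 0.2). Without wild type replicate 1 it was -0.26 and not called, and the call held in 1 of the 6 fits that left out a library, the one without wild type replicate 2, where it was -0.70. It was also lost without the filter and without the trend in eBayes.

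**Figure D2:**
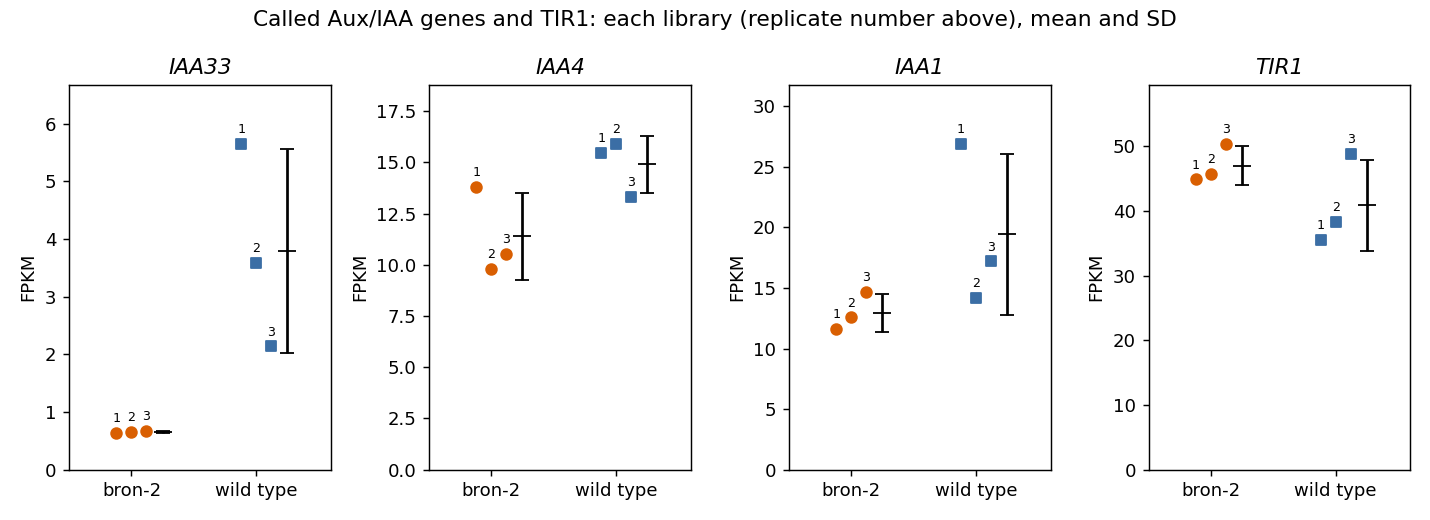
FPKM of IAA33, IAA4, IAA1 and TIR1 in each library, with the replicate number above each point, and the mean with its SD (n = 3) as a bar to the right of each group. In each panel bron-2 (orange circles) stands left of wild type (blue squares), and the axis starts at 0. The groups are apart for IAA33 (0.634 to 0.673 against 2.14 to 5.65 FPKM) and overlap for the other 3 genes.

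The promoters of the called genes are shown because all 3 lie in one family and moved in one direction. Each line holds the 250 bases before the annotated start in TAIR10.1 (RefSeq), on the plus strand, and overlaps no other annotated gene. Both strands were searched for the auxin response element TGTCTC, its variant TGTCGG, the brassinosteroid response elements CGTGTG and CGTGCG and the G-box CACGTG, none of which overlapped another here. Matches are in capitals.
IAA33, chr5:23269664-23269913: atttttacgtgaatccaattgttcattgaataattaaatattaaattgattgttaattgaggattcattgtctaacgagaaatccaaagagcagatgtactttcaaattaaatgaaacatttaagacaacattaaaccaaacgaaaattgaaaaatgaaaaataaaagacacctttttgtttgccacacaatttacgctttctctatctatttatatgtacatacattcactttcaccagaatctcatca
IAA4, chr5:17549929-17550178: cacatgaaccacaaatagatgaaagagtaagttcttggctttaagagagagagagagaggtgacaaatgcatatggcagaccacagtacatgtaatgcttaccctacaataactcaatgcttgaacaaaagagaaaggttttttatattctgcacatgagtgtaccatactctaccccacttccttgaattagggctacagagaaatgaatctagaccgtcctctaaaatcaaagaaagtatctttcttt
IAA1, chr4:8360746-8360995: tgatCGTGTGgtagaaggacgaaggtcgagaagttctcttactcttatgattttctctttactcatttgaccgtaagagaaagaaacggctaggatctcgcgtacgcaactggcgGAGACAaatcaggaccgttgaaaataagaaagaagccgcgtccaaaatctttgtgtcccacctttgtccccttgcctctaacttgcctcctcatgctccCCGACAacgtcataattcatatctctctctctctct
Matches were found in the IAA1 promoter alone, with CGTGTG at 246 to 241 bases before the start, TGTCTC on the minus strand at 135 to 130 bases and TGTCGG on the minus strand at 36 to 31 bases. TGTCTC was in 11 of the 49 member promoters (22.4%) and in 10.9% of all 27443 promoters of the same length, and TGTCGG in 8 (16.3%) and 4.16%. CGTGTG was in 7 members (14.3%) and 5.37% of all promoters, CGTGCG in 0 members and 1.57%, and CACGTG in 4 members (8.16%) and 6.49%. These are matches of letters, not measured binding sites.

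Among the canonical Aux/IAA genes, 18 of 23 passed the filter, 2 were called, and 12 had a log2 fold change below 0. IAA19, a repressor of growth and bending responses, was at 4.30, 5.79 and 3.37 FPKM in bron-2, against 6.48, 6.64 and 4.65 FPKM in wild type (log2 fold change -0.35, limma adjusted p = 0.599). IAA14 (SLR), the repressor that blocks lateral root initiation when stabilised, was at 29.0, 24.9 and 21.0 FPKM in bron-2, against 39.4, 31.5 and 22.6 FPKM in wild type (log2 fold change -0.29, limma adjusted p = 0.685). Both had overlapping groups. They were singled out after their values were seen, because they were called without wild type replicate 3. IAA2, whose values are given further below, was called there as well, and IAA19 was also called without bron-2 replicate 2. At the other end, IAA3 (SHY2), which sets meristem size together with cytokinin, was at 3.92, 4.89 and 3.31 FPKM in bron-2 and 3.61, 3.48 and 3.65 FPKM in wild type, with a 95% interval of -0.19 to 0.45. Over the 20 Aux/IAA genes tested, the log2 fold changes ran from -1.47 to 0.13, with a median of -0.05.

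Of the 6 noncanonical Aux/IAA genes, IAA33 and IAA31 passed the filter. IAA31, a relative of IAA20 and IAA30, was at 5.94, 4.11 and 4.12 FPKM in bron-2, against 4.55, 3.95 and 3.99 FPKM in wild type (log2 fold change 0.13, limma adjusted p = 0.810), so the noncanonical genes did not move as a class. IAA32 was at 0, 0.112 and 0.101 FPKM in bron-2, against 0.247, 0.142 and 0.123 FPKM in wild type. Every wild type value exceeded every bron-2 value, but the gene is at the limit of detection and was not tested. The other members under the filter were IAA5, IAA6, IAA15, IAA20, IAA27, IAA29, IAA30, IAA34, ARF11 and ARF18. IAA15 was listed at 0 in all 6 libraries, and 6 members were at 0 in some of them.

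The 3 pairs of Aux/IAA genes that lie within 20 kb of each other, head to head, were at unequal levels. IAA17 was at 54.6 to 75.0 times the level of its neighbour IAA3 in bron-2 and 68.2 to 76.9 times in wild type. IAA7 was at 2.43 to 2.96 times IAA2 in bron-2 and 2.00 to 3.09 times in wild type. IAA14 was at 1.43 to 2.50 times IAA1 in bron-2 and 1.31 to 2.22 times in wild type. For each pair the ranges of the genotypes overlapped.

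The ARF genes were at lower levels than the most abundant repressors, with means from 0.157 to 26.2 FPKM. Of the 15 ARF genes, 13 passed the filter, 0 were called, and their median log2 fold change was 0.02. Class A holds the activators ARF5, ARF6, ARF7, ARF8 and ARF19. ARF7 (NPH4), an activator in tropic growth and lateral root formation, was at 27.1, 24.9 and 26.8 FPKM in bron-2 and at 27.5, 26.2 and 24.5 FPKM in wild type. ARF19, its close partner in roots, was at 11.1, 10.6 and 12.6 FPKM in bron-2, against 11.97, 13.0 and 8.84 FPKM in wild type. Both had overlapping groups, with 95% intervals of -0.19 to 0.21 for ARF7 and -0.31 to 0.37 for ARF19. ARF5 (MONOPTEROS), needed to form the embryonic root, was at 3.27, 2.45 and 2.90 FPKM in bron-2 and 3.38, 2.99 and 3.13 FPKM in wild type (95% interval -0.40 to 0.19).

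Classes B and C hold the ARF genes known mainly as repressors. ARF2, the most abundant class B gene here, was at 13.7, 15.8 and 14.4 FPKM in bron-2 and at 15.3, 15.5 and 14.3 FPKM in wild type, with a 95% interval of -0.25 to 0.18. ARF3 (ETTIN), an unusual ARF without the Aux/IAA-binding domain, was at 3.53, 3.80 and 3.93 FPKM in bron-2, against 2.96, 3.49 and 2.80 FPKM in wild type. It was the one tested member whose bron-2 libraries all lay above the wild type libraries, and IAA33 the one whose libraries all lay below. Among all tested genes 15.7% had such groups without overlap, 8.67% lower and 7.06% higher in bron-2, so 2 of 38 members was below the background. The ARF3 log2 fold change was 0.22 (SE 0.12, limma p = 0.0997, exact permutation p = 0.1).

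ARF18, a class B gene under the filter, was at 0.299, 0.269 and 0.381 FPKM in bron-2, against 0.108, 0.110 and 0.144 FPKM in wild type. The groups did not overlap, and in the fit without the filter the log2 fold change was 0.23 and the gene was called (limma adjusted p = 0.419). All 6 values were under 0.4 FPKM. The class C genes ARF10 and ARF16, which with IAA33 act in the distal root tip, were not called: ARF10 was at 10.3, 9.00 and 10.2 FPKM in bron-2, against 11.8, 11.3 and 9.31 FPKM in wild type. ARF16 was at 5.85, 7.14 and 6.90 FPKM in bron-2, against 9.29, 6.73 and 6.83 FPKM in wild type, and the 95% intervals were -0.38 to 0.15 for ARF10 and -0.50 to 0.16 for ARF16. For both genes the groups overlapped. The 9 members with a microRNA site shown above held 0 calls, with 4 log2 fold changes below 0 and 5 above.

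**Figure D3:**
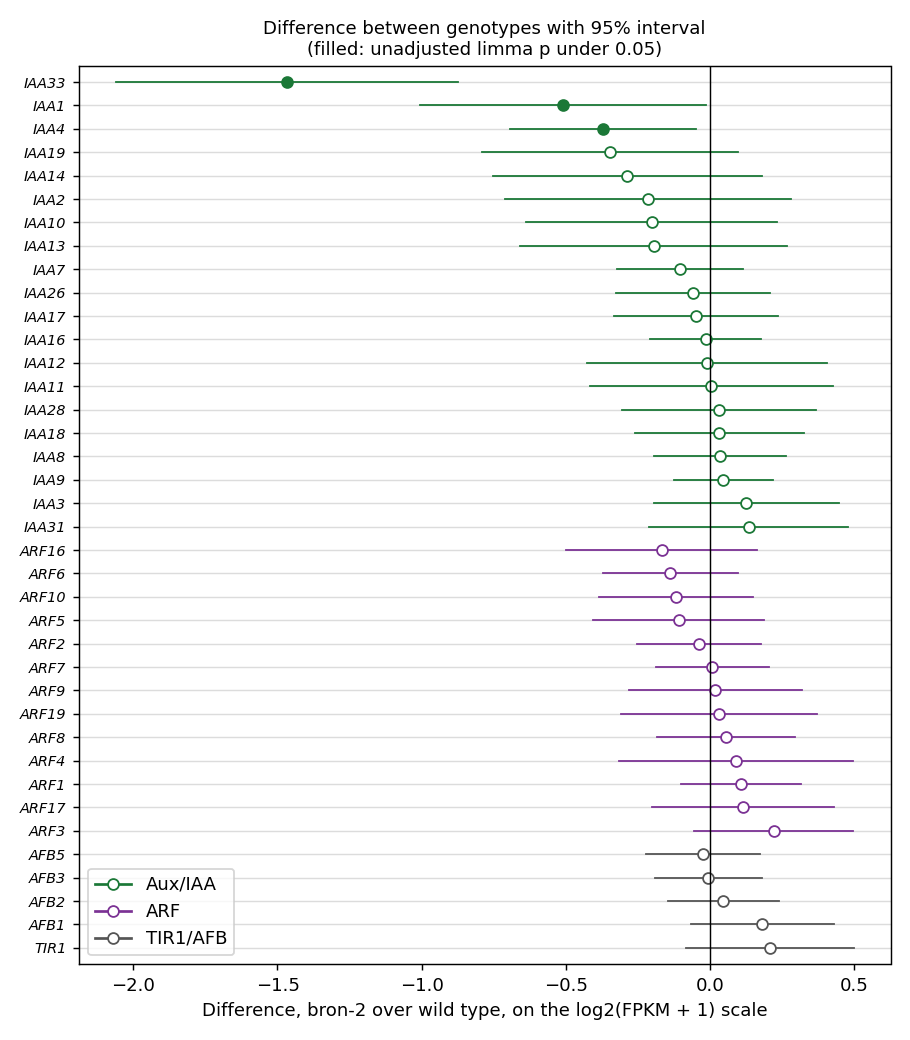
Log2 fold change of bron-2 over wild type on the log2(FPKM + 1) scale for the 38 members tested, with the 95% interval from limma as a horizontal line, ordered within Aux/IAA (green), ARF (purple) and TIR1/AFB (grey) genes. Filled points have an unadjusted p under 0.05. IAA33 at -1.47, IAA1 at -0.51 and IAA4 at -0.37 are filled, and the intervals of the other 35 genes cross 0.

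Summed over the Aux/IAA genes and over the ARF genes, the levels of bron-2 and wild type lay close together. The Aux/IAA sum was 1313, 1280 and 1126 FPKM in bron-2, against 1371, 1285 and 1174 FPKM in wild type. The ARF sum was 109.3, 109.2 and 112.9 FPKM in bron-2, against 115.7, 113.6 and 103.7 FPKM in wild type. The groups overlapped for both sums, unlike those of the receptor sum given above.

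The rest of the pathway was read from a fixed list of 43 genes, of which 23 passed the filter. Of these, 0 were called, where 9.79% of all tested genes were, with 9 log2 fold changes below 0 and 14 above. The 5 TOPLESS family co-repressor genes were all tested, and TPL was at 43.4, 44.1 and 42.9 FPKM in bron-2, against 39.6, 40.4 and 42.3 FPKM in wild type (log2 fold change 0.09, limma adjusted p = 0.729). The bron-2 values of TPL all lay above the wild type values, by a small margin. All 9 genes of the SCF ligase and its regulators were tested, 8 with a log2 fold change above 0, the largest being 0.18 for the adaptor gene ASK2 (limma adjusted p = 0.558). These small differences did not pass the threshold.

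Among the classical auxin-induced target families, 5 of 8 GH3 genes, which encode enzymes that conjugate auxin to amino acids, 1 of 4 LBD genes and 2 of 9 SAUR genes passed the filter. GH3.1 was at 6.32, 4.69 and 6.78 FPKM in bron-2, against 10.8, 9.46 and 5.40 FPKM in wild type (log2 fold change -0.43, limma adjusted p = 0.596). LBD16, a direct target of ARF7 and ARF19 in lateral root initiation, was at 2.58, 2.97 and 3.22 FPKM in bron-2, against 1.23, 3.35 and 3.58 FPKM in wild type. For GH3.1, wild type replicate 3 lay among the bron-2 values, and for LBD16, wild type replicate 1 lay below all of them and the other wild type libraries above. The SAUR genes, which encode small proteins that promote cell expansion, were mostly not detected, with 6 of 9 listed at 0 in all libraries. Of the family members left out of the 49, AFB4 was at 7.34, 8.47 and 8.60 FPKM in bron-2 and 6.72, 7.46 and 7.69 FPKM in wild type, and 5 of the 7 other ARF genes were listed at 0 in every library.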

How the data were processed

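The 6 libraries were prepared from total RNA of root tips, 3 per genotype, and the authors mapped the reads to TAIR10 with Cufflinks. Its version, the gene annotation and the strand setting are not given in the sources used here. The deposited values are FPKM, with no counts, so read depth is unknown and precision comes from the 3 biological replicates. All 6 columns were used, and 0 belonged to no sample. PoissonSeq, the study's test, needs counts. limma 3.58.1 in R 4.3.3 (lmFit, eBayes with trend, two-sided, Benjamini-Hochberg) was therefore fitted to log2(FPKM + 1) of the 17107 genes averaging 1 FPKM or more. The script was tested on simulated data. Exact permutation tests used scipy 1.17.1 in Python 3.11.15. Named members were those called, those with groups that do not overlap, the 3 highest of each family and the 3 largest rises and falls, with others described by role. Members and lists were chosen with earlier results of these data known. Coordinates and sequences came from the RefSeq TAIR10.1 annotation, which held 32826 of the 33560 identifiers and all 49 members. In it 15 members overlap another gene (IAA3, IAA5, IAA9, IAA10, IAA11, IAA13, IAA27, IAA32, IAA34, ARF1, ARF5, ARF7, ARF19, AFB1 and AFB3), so their reads may be shared. The alternatives changed the pseudocount (0.1), the filter (none, or an average of 5 FPKM), the scaling (median ratio, quantile) or the variance model (no trend), added the replicate number as a block, or left out each library in turn.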

Additional observations from a re-analysis of the deposited data

How the results depend on the processing

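With the replicate number as a block, 7 members were called at the unadjusted threshold, against 3 without it: IAA33, IAA4, IAA1, IAA2, IAA14 and IAA19 were lower in bron-2 and TIR1 was higher. The share called over all genes was then 13.2%. Same-numbered libraries had correlated deviations of r = 0.12 for number 1, -0.01 for number 2 and 0.19 for number 3, and 2 of 3 libraries of each genotype correlated best with their own number, but not every pair was over 0.1 and no source says what a shared number stands for, so the numbers were not taken as pairs. When each library was left out in turn, the number of called members was between 1 and 6 at the unadjusted threshold and between 0 and 1 at the adjusted one. The count of 6 came without wild type replicate 3, where 13.4% of all genes were called. The 1 adjusted call there was IAA33. The count of 1 came without wild type replicate 1 and without bron-2 replicate 3. The other alternatives gave 2 or 3 unadjusted calls and 0 adjusted calls. Without the filter ARF18 was called and IAA1 was not, and a mean of at least 5 FPKM left IAA33 untested. Among the 180 values of 14 genes under the alternatives, 157 kept direction and call, 11 lost the call, 2 gained it and 10 changed sign. All 10 changes of sign came from leaving out a library, in genes that were not called. The log2 fold changes were then between -0.066 and 0.040 for IAA16, -0.15 and 0.086 for IAA17, -0.032 and 0.047 for ARF7, -0.092 and 0.0075 for ARF2, -0.12 and 0.13 for ARF19, and -0.0016 and 0.11 for AFB2. Reads behind each FPKM value are not known, so no counting error can be given for members near 0.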

Other observations

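Some Aux/IAA genes varied with the replicate number in both genotypes. IAA2, IAA7, IAA14, IAA16 and IAA17 were highest in the library numbered 1 and lowest in the library numbered 3, in bron-2 and in wild type alike. IAA2, for instance, was at 56.3, 46.3 and 38.5 FPKM in bron-2, against 71.5, 55.0 and 40.3 FPKM in wild type, in the order of the numbers 1 to 3. These 5 are 25.0% of the 20 Aux/IAA genes tested, whereas 7.14% of all tested genes had the pattern, as did 0 of 13 ARF genes and 0 of 5 receptor genes. The pattern was noticed in these data and was not tested. The Casparian strip gene CASP1, a marker of differentiating endodermis, was lowest in number 1 and highest in number 3, at 1011, 1163 and 1378 FPKM in bron-2 and 704, 999 and 1191 FPKM in wild type. CASP4 had the same order in both genotypes, whereas MYB36, the other marker of that list, was lowest in number 3, at 60.2, 54.5 and 51.1 FPKM in bron-2 and 58.4, 59.4 and 54.5 FPKM in wild type. Of the 3 root hair markers, COBL9 was highest in number 1 and lowest in number 3, at 140.3, 137.3 and 121.4 FPKM in bron-2 and 149.8, 134.8 and 117.2 FPKM in wild type. EXPA7 and RHS19 had this order in bron-2, at 522.7, 466.6 and 394.7 FPKM and at 831.1, 770.6 and 712.3 FPKM. In wild type they did not, at 427.5, 479.4 and 427.0 FPKM for EXPA7 and 743.7, 729.3 and 744.0 FPKM for RHS19. The markers of differentiation thus had no common order. The part of tissue make-up in the Aux/IAA pattern was not tested, and the numbers stand for separate samples whose shared handling is not given in the sources used here.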
